A study of Homo sapiens with 6 samples.

Results

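The genes described here encode the proteasome, its activators and a few of the proteins that assemble it. They were chosen by gene symbol alone: 41 symbols were listed, and all 41 were among the 25268 symbols of the deposited table. RNA was sequenced from A673 cells, an established Ewing sarcoma line that carries the EWS-FLI1 fusion, 72 h after transfection with esiRNA, a mixture of short interfering RNAs that an enzyme cuts from long double-stranded RNA. Of the 3 groups, each of 2 libraries, esiGFP was the control, directed at a gene the cells lack, and esiFLI1 and esiUSP9X targeted the genes they are named for. USP9X is a deubiquitinase, and the title of the series states that it stabilizes EWS-FLI1. All libraries come from this 1 line, no drug treatment is named in the labels, and the labels do not state whether replicates 1 and 2 were separate cultures, so the p-values reflect no more than the spread among these 6 libraries.

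The proteasome degrades proteins that carry ubiquitin chains. Its 20S core is a barrel of stacked rings: the outer rings are made of alpha subunits, which gate the entry, and the inner rings of beta subunits, which hold the proteolytic sites. The 19S regulatory particle binds the ends of the barrel, and its base unfolds substrates with a ring of ATPases while its lid removes ubiquitin. PSME proteins can cap the core in place of the 19S particle, and in cells exposed to interferon the catalytic beta subunits are replaced by PSMB8, PSMB9 and PSMB10. Transcription of the constitutive subunits is known to be raised together by NFE2L1 through antioxidant response elements when proteasome activity is short.

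The 41 genes were read in 8 groups by their place in the particle: 7 alpha ring genes, 7 beta ring genes, PSMB10, 6 ATPase genes, 4 other genes of the base, 8 lid genes, 4 assembly factors and 4 activators. All 41 were among the 12169 genes with at least 1 FPKM (fragments scaled to the length of the transcript and to the mapped fragments of its library) in at least 2 of the 6 libraries. Because of the scaling to length, levels are set side by side between genes within a library, but other differences between transcripts are not scaled. Genes higher and lower in replicate 2 differed in transcript GC content, as given at the end. The depth of each library is unknown, because only FPKM were used. The targeted genes checked the labels first. In replicates 1 and 2, the FLI1 level was 24.1 and 36.5 FPKM with esiGFP, 24.98 and 31.9 with esiUSP9X, but 12.7 and 14.1 with esiFLI1. For USP9X the esiUSP9X libraries held 5.31 and 7.10 FPKM, the esiGFP libraries 20.6 and 26.6 and the esiFLI1 libraries 26.2 and 37.7. Each target was lowest in the pair of libraries named for it. Of 6 genes taken as markers of the line, NKX2-2, NR0B1, STEAP1, CCND1 and NPY1R were present, and CD99 was listed at 0 in all 6 libraries. The summed FPKM of these 6 was 713 to 739 in esiGFP, 298 to 317 in esiFLI1 and 696 to 755 in esiUSP9X. The endothelial genes PECAM1, CDH5, VWF and KDR summed to 0.210 and 0.143 FPKM in esiGFP against 1.497 and 1.57 in esiFLI1. KDR alone was at 0.106 and 0.0885 in esiGFP against 1.30 and 1.33 in esiFLI1. The leukocyte genes PTPRC, CD3E and CD68 summed to 3.78 and 2.73 in esiGFP against 7.59 and 4.51 in esiFLI1, nearly all of it CD68, with CD3E listed at 0 in all 6 libraries. Of the epithelial genes EPCAM, CDH1, KRT8 and KRT18, summing to 141 to 243 FPKM, CDH1 was listed at 0 in all libraries, EPCAM was at most 0.362 FPKM and KRT18 made up most of the sum. KRT8 was at 7.63 and 4.12 FPKM in esiGFP, 21.3 and 12.03 in esiFLI1 and 14.5 and 8.39 in esiUSP9X, with differences from esiGFP of 1.36 and 0.86 (limma with block, adjusted p = 6.0e-05 and 0.021). The part of these marker genes in the results was not tested. One transcript, MIR6723, took 33.2% to 50.9% of the FPKM sum, with the largest share in replicate 2 of esiFLI1. Whether it entered the authors' scaling is not given in the sources used here, and values rescaled without MIR6723 are given too.

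Promoter sequences are shown for 7 of the genes because their RNA differed in opposite directions or little after esiFLI1: PSMD12, PSMD14, POMP and ADRM1 were lower, PSME1 was higher, and PSME2 and PSMB10 differed little. RefSeq promoters on GRCh38.p14 were matched by symbol for 36 of the 41 genes, and reach from 250 bases before the start site over its first 50 bases. The FPKM table was made on another build, so these coordinates belong to the RefSeq table only. The stretches printed hold 180 bases before the start site and 30 from it on, 5′ to 3′ on the strand of the gene. Their positions are PSMD12 (chr17:67366548-67366757, - strand), PSMD14 (chr2:161308245-161308454, + strand), POMP (chr13:28658950-28659159, + strand), ADRM1 (chr20:62302716-62302925, + strand), PSME1 (chr14:24136014-24136223, + strand), PSME2 (chr14:24146581-24146790, - strand) and PSMB10 (chr16:67936821-67937030, - strand). Capitals mark matches on either strand to the antioxidant response core TGACNNNGC, the core CCGGAAGT bound by ETS factors, the family of FLI1, and the interferon response motif, a pair of GAAA with any 2 bases between.
PSMD12: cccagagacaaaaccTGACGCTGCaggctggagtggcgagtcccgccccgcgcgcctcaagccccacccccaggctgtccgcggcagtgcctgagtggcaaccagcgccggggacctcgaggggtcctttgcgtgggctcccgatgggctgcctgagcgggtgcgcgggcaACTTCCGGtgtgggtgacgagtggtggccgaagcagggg
PSMD14: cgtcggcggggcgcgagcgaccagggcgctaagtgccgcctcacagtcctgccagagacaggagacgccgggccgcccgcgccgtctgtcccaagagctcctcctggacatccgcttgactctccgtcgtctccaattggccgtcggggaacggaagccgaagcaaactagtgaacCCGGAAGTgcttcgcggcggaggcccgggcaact
POMP: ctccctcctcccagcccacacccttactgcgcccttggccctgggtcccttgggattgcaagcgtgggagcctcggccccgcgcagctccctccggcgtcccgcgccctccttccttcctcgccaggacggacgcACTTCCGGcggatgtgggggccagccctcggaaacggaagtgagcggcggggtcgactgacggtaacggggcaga
ADRM1: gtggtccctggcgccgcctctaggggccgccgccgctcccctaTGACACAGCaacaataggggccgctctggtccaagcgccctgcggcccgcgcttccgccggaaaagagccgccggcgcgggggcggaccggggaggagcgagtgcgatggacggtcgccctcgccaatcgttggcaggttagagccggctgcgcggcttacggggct
PSME1: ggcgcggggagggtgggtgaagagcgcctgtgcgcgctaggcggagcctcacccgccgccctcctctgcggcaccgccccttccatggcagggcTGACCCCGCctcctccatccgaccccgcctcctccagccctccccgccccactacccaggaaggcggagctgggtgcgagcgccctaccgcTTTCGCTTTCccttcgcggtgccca
PSME2: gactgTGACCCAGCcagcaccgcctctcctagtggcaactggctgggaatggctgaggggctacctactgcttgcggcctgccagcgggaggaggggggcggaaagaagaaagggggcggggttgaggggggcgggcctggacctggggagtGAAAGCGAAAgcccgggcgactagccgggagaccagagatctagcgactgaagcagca
PSMB10: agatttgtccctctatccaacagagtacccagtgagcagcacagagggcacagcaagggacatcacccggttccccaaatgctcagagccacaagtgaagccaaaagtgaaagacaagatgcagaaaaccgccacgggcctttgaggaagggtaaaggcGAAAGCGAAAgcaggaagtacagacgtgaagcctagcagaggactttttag
The ETS core lay at position -9 from the start site in PSMD12, -4 in PSMD14 and -45 in POMP. The antioxidant core lay at -165 in PSMD12 and at -137 in ADRM1. The same interferon motif letters, GAAAGCGAAA, lay at -28 in PSME2 and at -21 in PSMB10, and their reverse complement at 5 in PSME1, just inside the transcript. PSME1 and PSME2 also held 1 antioxidant core each.

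Across the 36 matched promoters, in the full window of 250 and 50 bases, the ETS core was found in 8 (22.2%), against 4.14% of all 35116 promoters of the same length in the table. These 8 were POMP, PSMC1, PSMC2, PSMD12, PSMD13, PSMD14, PSMD8 and PSME4. The 5 genes without a promoter in the table were PSMA7, PSMB1, PSMB6, PSMB7 and PSMD4. The antioxidant core was found in 11 (30.6%, against 13.3% of all), the CCAAT box CCAAT in 17 (47.2%, against 34.6%) and the interferon motif in 5 (13.9%, against 3.57%), namely PSMA4, PSMB4, PSMB10, PSME1 and PSME2. A run of 3 GGAA repeats was in 0 of the 36 and in 0.0854% of all. Both strands were searched, and none of these motifs contains another, although GGAA is part of the ETS core. The 36 are a single promoter per gene, all of expressed genes. The 35116 are all entries, not limited to expressed genes or to a single entry per symbol, so the shares come from unlike sets. The motifs were chosen with the expression values known, and a match describes letters, not a bound site.

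In these cells the median over the 41 genes was 172 to 177 FPKM in the esiGFP libraries. PSMA7, an alpha ring subunit, led with 551 and 517 FPKM in esiGFP, and PSMB1, a beta ring subunit with no proteolytic site, followed with 510.0 and 553. PSMB4, another beta subunit without a site of its own, was at 547 and 422, and PSMB5, which carries the chymotrypsin-like site, at 425 and 375. These leading genes overlap in their libraries, so their order is not fixed by these data. The core rings hold each subunit in equal number, yet the RNA levels differed within the rings. PSMA5 was at 36.6 and 52.3 FPKM in esiGFP and PSMB2 at 48.4 and 54.7, and they were the lowest of the 14 ring genes in 6 of 6 libraries. The lid gene PSMD11 was the lowest of its class in all 6. PSMB10, the interferon-induced counterpart of PSMB7, was the lowest of the 41 on the mean over libraries, at 17.7 and 6.13 FPKM in esiGFP, and the assembly chaperone PSMD9 and the nuclear activator PSME3 came next from the bottom.

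**Figure D1:**
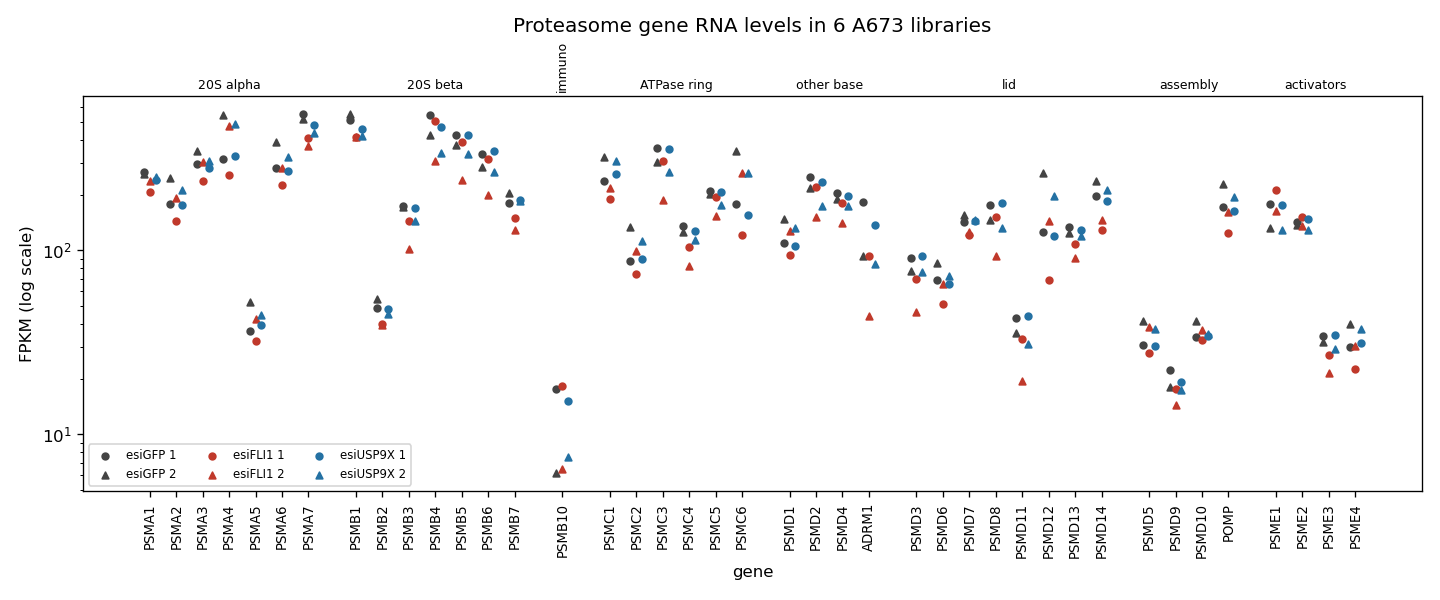
FPKM of the 41 genes on a log axis, grouped by place in the proteasome; colour gives the group, circles replicate 1 and triangles replicate 2. The ring genes PSMA5 and PSMB2 sit far below the other 12 ring genes in every library, and PSMB10 is the lowest gene on the mean over libraries, although PSMD9 lies below it in replicate 1 of esiFLI1.

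The first comparison asks which proteasome RNAs differ after FLI1 was targeted. Most of the 41 were lower in esiFLI1: 38 had a negative difference from esiGFP in both replicate numbers, where 43.7% of all genes did. The summed FPKM of the 41 was 7735 and 8309 in esiGFP, 6417 and 6132 in esiFLI1 and 7396 and 7192 in esiUSP9X, so both esiFLI1 libraries lay below the other 4. The median difference was -0.37 on the log2(FPKM + 1) scale, against -0.03 for all genes, and the single genes ran from -1.02 for ADRM1 to 0.28 for PSME1. In 20 of the 41 both esiFLI1 libraries lay below both esiGFP libraries (17.3% of all genes did), and in 0 they lay above (19.8% of all). In bulk RNA, fewer cells of a kind and less RNA per cell cannot be told apart. The differences were small, and their call depended on the model. With limma and no replicate term, 0 of the 41 passed an adjusted p of 0.05, where 2.81% of all genes did, and 4 had an unadjusted p under 0.05, where 15.8% did. FLI1, the target itself, also did not pass without the block (limma, adjusted p = 0.13), but did with it (limma with block, adjusted p = 4.4e-04). With the replicate number as a block, limma called 27 of the 41, 26 lower and 1 higher, where 21.6% of all genes were called lower and 20.6% higher, 42.1% in all. In that fit 34 had an unadjusted p under 0.05, where 50.6% of all genes did. The verbs fell and rose are used here for calls in that blocked fit.

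Libraries with the same number deviated together from their group means, which is the ground for the block, but this pairing is read from the data and not from the labels. The spread between replicates 1 and 2 within a group was wide for several genes and in the same direction in every group. Rescaling moved the size of the shift. With MIR6723 left out of the scaling, a choice made after seeing the data, the median of the 41 was -0.22 and that of all genes 0.10, and 13 fell and 1 rose, 14 of 41 where 41.1% of all genes were called (12.7% lower). With quantile normalization the median was -0.25 and 15 fell and 1 rose, 16 of 41 where 38.7% of all genes were called (20.8% lower). With median ratio scaling it was -0.45 and 36 fell and 0 rose, where 45.7% of all were called (28.1% lower). The number of negative differences was 36, 38 and 40 of 41 under these scalings in turn. Without replicate 2 of esiFLI1 the blocked fit called 7, all lower, where 22% of all genes were called (10.6% lower), and without replicate 2 of esiGFP it called 8, all lower, where 28.6% were (13.5% lower). In these 2 fits, and in the rescalings with 14 and 16 calls, the count over both directions was near or below the share of all genes. The counts by class also moved over the blocked settings that kept all 6 libraries, where 12.7% to 28.1% of all genes were called lower. In the core 1 to 7 of the 7 alpha ring genes fell and 2 to 7 of the 7 of the beta ring. In the base 3 to 6 of the 6 ATPase genes fell and 1 to 4 of the other 4. In the lid 4 to 8 of the 8 fell, and 1 to 2 of the 4 assembly factors and of the 4 activators. The ATPase and activator counts went lower still with a library left out. Without replicate 2 of esiGFP or of esiFLI1 the count was 0 in the beta ring and 3 in the lid. The calls lost without either of these libraries included PSMB1, PSMB3, PSMB7, PSMC1, PSMC3, PSMD2, PSMD9, PSMD11, PSME3 and PSME4. Those of PSMC4 and PSMD3 were lost without that esiFLI1 library. The calls of PSMB1 and PSMD2 were also lost without either esiUSP9X library, and that of PSMC6 without replicate 1 of esiFLI1. Quantile normalization lost PSMB1, PSMD2 and PSMD9. The scaling without MIR6723 lost PSMB1, PSMD2, PSMD9, PSMC6 and PSME4. PSMA7, ADRM1, PSMD12, PSMD14 and POMP were called in all 10 settings that kept the block.

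**Figure D2:**
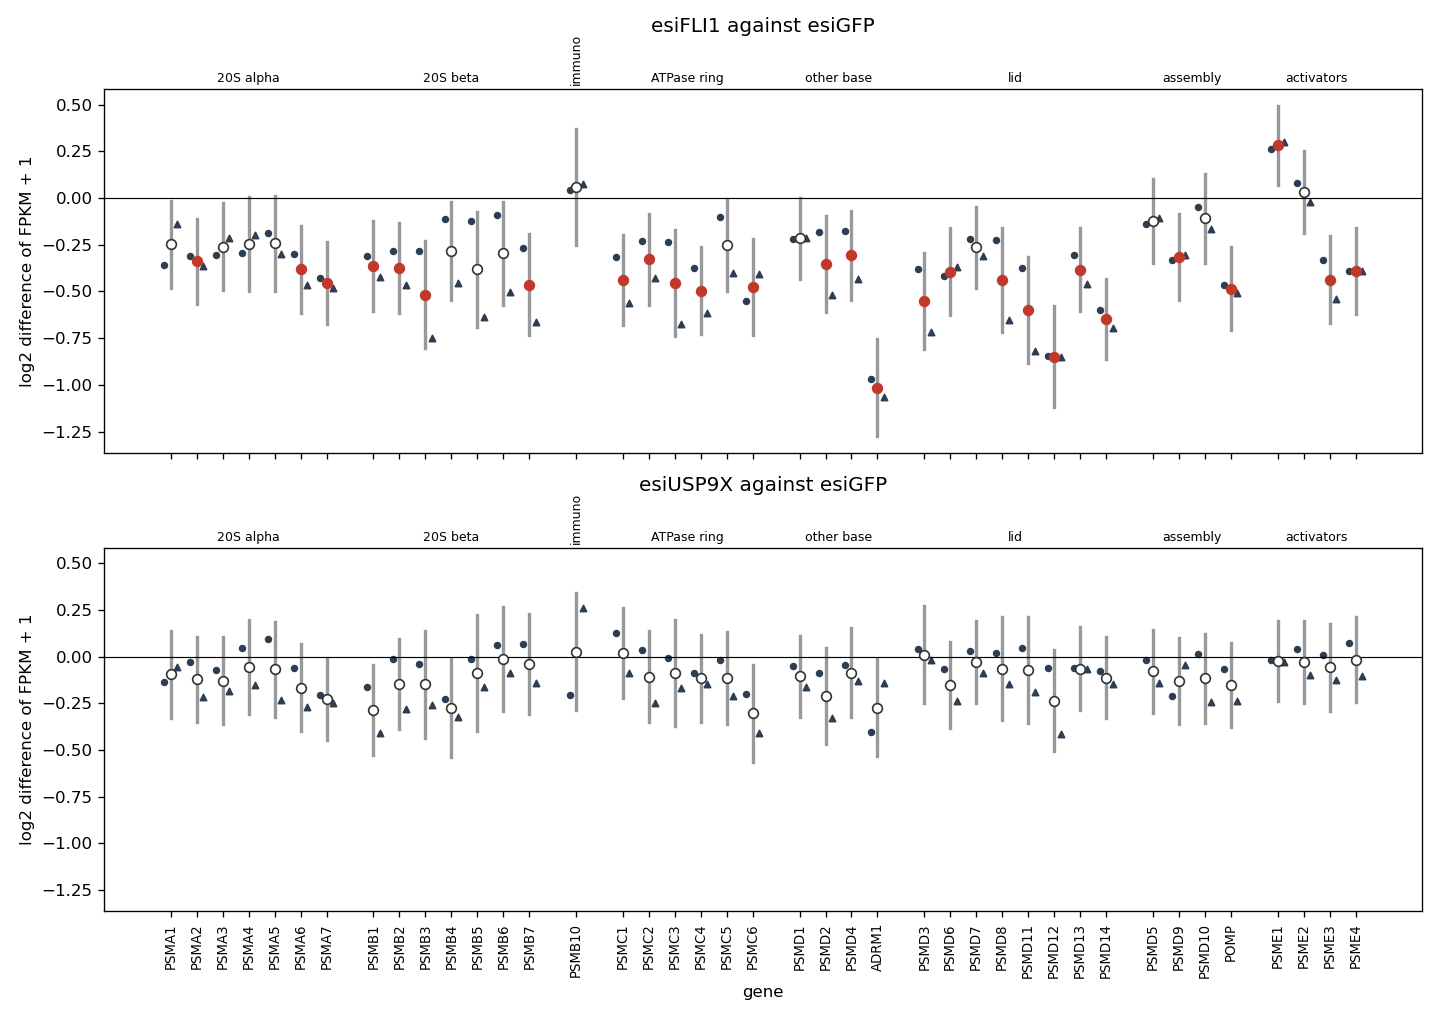
Difference in log2(FPKM + 1) from esiGFP for each of the 41 genes, for esiFLI1 in the upper panel and esiUSP9X in the lower panel. Large points are fitted differences, filled red where the blocked fit called the gene and open where it did not. Grey bars are 95% intervals of that fit. The small circle and triangle are the differences within replicate 1 and replicate 2. In the upper panel 26 genes are red below 0 and 1 above, and in the lower panel none is red.

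The alpha ring showed one of the smaller shifts, with a median of -0.26, and 3 of its 7 genes fell while the other 4 did not pass. Beside this count and the class counts below stand the 21.6% of all genes that the blocked fit called lower. PSMA7 was at 551 and 517 FPKM in esiGFP, 410 and 370 in esiFLI1 and 479 and 435 in esiUSP9X, so the 3 groups did not overlap and esiUSP9X lay between. Its difference in esiFLI1 was -0.45 (SE 0.09, limma with block, adjusted p = 0.0071, and 0.27 without block). PSMA5 was at 36.6 and 52.3 in esiGFP and 32.1 and 42.3 in esiFLI1, where the groups overlapped, and its -0.24 did not pass (limma with block, adjusted p = 0.11). In the alpha ring the median difference was nearly the same within replicate 1 (-0.31) and replicate 2 (-0.30).

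In the beta ring the median was -0.37 and 4 of 7 genes fell, but the replicates differed more, with medians of -0.27 and -0.50. Of the 3 genes with a proteolytic site PSMB7, the trypsin-like subunit, fell, and the other two did not pass; the difference between them was not tested. PSMB7 was at 180 and 206 FPKM in esiGFP against 150 and 130 in esiFLI1, a difference of -0.46 (SE 0.12, limma with block, adjusted p = 0.015, and 0.29 without block), and the 2 groups did not overlap. PSMB5, the chymotrypsin-like subunit, was at 425 and 375 in esiGFP and 390 and 241 in esiFLI1. Its difference of -0.38 just missed the threshold (limma with block, adjusted p = 0.051), with -0.12 within replicate 1 and -0.64 within replicate 2. PSMB6, the caspase-like subunit, was at 333 and 284 in esiGFP and 313 and 200 in esiFLI1, with -0.09 and -0.50 within the replicates and an adjusted p of 0.081 in the same fit. The 3 catalytic genes thus shared a lower replicate 2 of esiFLI1, the library with the highest MIR6723 share, and the part of that share in the result was not tested beyond the rescaling above. The largest difference of the ring was in PSMB3, a non-catalytic subunit, at 175 and 172 in esiGFP and 144 and 102 in esiFLI1 (-0.52, SE 0.12, limma with block, adjusted p = 0.012). PSMB4 had the smallest, -0.28 (limma with block, adjusted p = 0.080).

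The ATPase ring, whose 6 proteins unfold the substrate and open the gate of the core, had a median of -0.45, and 5 of 6 genes fell. PSMC4 was at 135 and 126 FPKM in esiGFP against 104 and 81.9 in esiFLI1, with no overlap, a difference of -0.50 (SE 0.10, limma with block, adjusted p = 0.0065, and 0.31 without block). PSMC3, the highest of the 6 on the mean over libraries, was at 360 and 301 in esiGFP and 305 and 188 in esiFLI1, with an adjusted p of 0.020 in the same fit. PSMC6 was at 179 and 348 in esiGFP and 122 and 263 in esiFLI1, so the groups overlapped, yet within replicates the differences were -0.55 and -0.40. PSMC5 was the exception, at 209 and 204 in esiGFP and 195 and 154 in esiFLI1 (-0.25, limma with block, adjusted p = 0.094). For PSMC1, which also fell, 13 named pseudogenes are annotated, so its reads may be shared with them.

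Of the 4 other genes of the base 3 fell, and 1 of them had the largest difference of all 41. ADRM1 is a ubiquitin receptor of the base that also docks the deubiquitinase UCHL5. It was at 183 and 92.7 FPKM in esiGFP, 92.8 and 43.8 in esiFLI1 and 138 and 83.8 in esiUSP9X. Replicate 1 was the higher library in every group, and replicate 1 of esiFLI1 was level with replicate 2 of esiGFP, so the groups met although each replicate differed by about the same amount, -0.97 and -1.06. The fitted difference was -1.02 (95% interval -1.28 to -0.76, limma with block, adjusted p = 4.3e-04), and the adjusted p was 0.46 without the block. ADRM1 shares exon positions with LAMA5 on the opposite strand in GENCODE v29. LAMA5 was at 7.07 and 1.52 FPKM in esiGFP against 18.2 and 7.72 in esiFLI1, the other way, and whether reads were counted by strand is not given in the sources used here. PSMD2, the scaffold that binds ubiquitin-like domains, fell by 0.35 (limma with block, adjusted p = 0.036), from 251 and 218 FPKM to 221 and 152. PSMD1, its partner scaffold, did not pass (-0.22, adjusted p = 0.10 in the same fit). The ratio of ADRM1 to PSMD2, from which the scaling between libraries cancels, was 72.9% and 42.6% in esiGFP, 42.1% and 28.9% in esiFLI1 and 58.7% and 48.4% in esiUSP9X. Both esiFLI1 ratios were the lowest, with 42.1% just under the lower esiGFP value.

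The lid had the most negative median of the classes, -0.50, and 7 of its 8 genes fell, where 21.6% of all genes were called lower. In 6 of the 8 both esiFLI1 libraries lay below both esiGFP libraries, where 17.3% of all genes did. The difference between classes was not tested. PSMD14, the metalloprotease that cuts ubiquitin chains from the substrate at the lid, was at 196 and 237 FPKM in esiGFP, 129 and 146 in esiFLI1 and 186 and 214 in esiUSP9X. Both esiFLI1 libraries lay below the other 4, and the difference from esiGFP was -0.65 (95% interval -0.86 to -0.43, limma with block, adjusted p = 0.0014, and 0.18 without block). Its partner PSMD7, which has the same fold but no activity, had the smallest difference of the lid, from 142 and 156 to 122 and 125 FPKM (-0.26, limma with block, adjusted p = 0.054). The ratio of PSMD14 to PSMD7 was 138% and 152% in esiGFP, 106% and 116% in esiFLI1 and 128% and 146% in esiUSP9X, with the esiFLI1 pair below the rest.

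PSMD12, a lid scaffold subunit, had a wide replicate gap, with 126 and 262 FPKM in esiGFP, 69.3 and 145 in esiFLI1 and 120 and 197 in esiUSP9X. Replicate 2 was about as far above replicate 1 in esiFLI1 as in esiGFP, so the groups overlapped while the differences within replicates were -0.85 and -0.85. The fitted difference was -0.85 (SE 0.12, limma with block, adjusted p = 0.0012), with 0.56 without the block. PSMD11, which clamps the lid to the core, was at 42.8 and 35.3 FPKM in esiGFP against 32.8 and 19.6 in esiFLI1 (-0.60, limma with block, adjusted p = 0.0066). PSMD3, another lid scaffold, was at 90.8 and 77.1 in esiGFP, 69.4 and 46.4 in esiFLI1 and 93.5 and 76.0 in esiUSP9X, so only the esiFLI1 pair stood low. Its difference from esiGFP was -0.55 (limma with block, adjusted p = 0.0063).

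Of the 4 assembly factors 2 fell, POMP, the maturation factor that holds assembling beta rings together, and PSMD9, a base chaperone. POMP was at 172 and 229 FPKM in esiGFP, 124 and 161 in esiFLI1 and 164 and 194 in esiUSP9X, and esiFLI1 lay wholly below esiGFP. Its difference was -0.48 (SE 0.10, limma with block, adjusted p = 0.0059, and 0.44 without block). PSMD9 was at 22.4 and 18 FPKM in esiGFP against 17.6 and 14.4 in esiFLI1, also with no overlap (-0.32, limma with block, adjusted p = 0.034, and 0.59 without block). Its call was lost with quantile normalization, with MIR6723 left out of the scaling and without any single esiGFP or esiFLI1 library. PSMD10, a base chaperone known as gankyrin, was at 33.9 and 41.5 FPKM in esiGFP against 32.8 and 36.9 in esiFLI1, and did not pass (-0.11, limma with block, adjusted p = 0.43). Its sign turned, to 0.043, when MIR6723 was left out of the scaling.

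**Figure D3:**
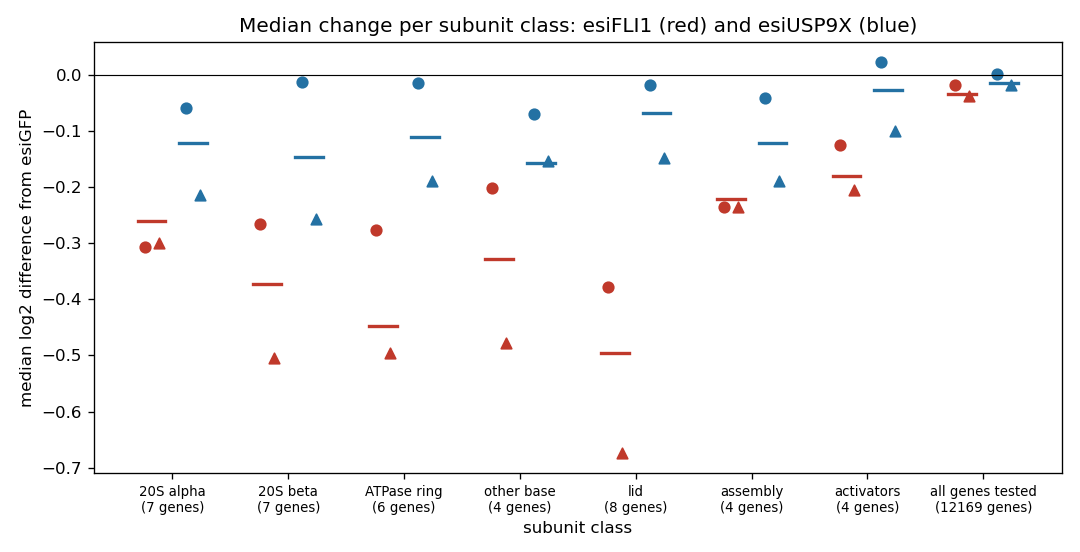
Median difference in log2(FPKM + 1) from esiGFP over the genes of each class, for esiFLI1 and esiUSP9X; bars are medians of the fitted differences, circles and triangles the medians within replicate 1 and replicate 2. PSMB10 is not drawn, and the last column holds all genes tested. For esiFLI1 the lid (-0.50) and the ATPase ring (-0.45) are the lowest, and no bar is above 0. The esiUSP9X bars lie nearer to 0 in every column.

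The activators divided. PSME3, which caps the core in the nucleus, was at 34.4 and 31.7 FPKM in esiGFP, 27.1 and 21.4 in esiFLI1 and 34.5 and 28.98 in esiUSP9X, and fell by 0.44 (SE 0.10, limma with block, adjusted p = 0.010). PSME4, the large single-chain activator, also fell. PSME1, a subunit of the interferon-inducible activator of the core, was the only one of the 41 that rose. PSME1 was at 178 and 132 FPKM in esiGFP, 214 and 163 in esiFLI1 and 176 and 130 in esiUSP9X. The groups overlapped, each replicate was higher in esiFLI1, and the difference was 0.28 (SE 0.09, limma with block, adjusted p = 0.040, and 0.73 without block). This call was lost under median ratio scaling and without each of the 6 libraries in turn, while the sign stayed positive. PSME2, the partner of PSME1 in the same cap, was at 143 and 137 FPKM in esiGFP against 152 and 135 in esiFLI1, a difference of 0.03 (95% interval -0.19 to 0.25). PSMB10 was at 17.7 and 6.13 in esiGFP, 18.2 and 6.51 in esiFLI1 and 15.2 and 7.53 in esiUSP9X. It followed the replicate number and not the group (0.06, 95% interval -0.25 to 0.37), and both it and PSME2 turned slightly negative, to -0.012 and -0.046, under median ratio scaling.

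Genes known for the immunoproteasome but outside the 41 were read from a list of 6. Of these 5 were kept and 4 rose in the blocked fit, where 20.6% of all genes were called higher. PSMB9, which replaces PSMB6, was at 1.94 and 1.25 FPKM in esiGFP, 5.45 and 4.05 in esiFLI1 and 1.27 and 0.453 in esiUSP9X. PSMB8, which replaces PSMB5, was at 17.0 and 7.70 in esiGFP, 28.5 and 21.7 in esiFLI1 and 13.1 and 8.94 in esiUSP9X. For both, the esiFLI1 pair was above the other 4 libraries, with differences from esiGFP of 1.15 for PSMB9 and 1.05 for PSMB8 (limma with block, adjusted p = 4.3e-04 and 0.0018, against 0.14 and 0.32 without block). IRF1, an interferon-induced transcription factor, rose by 1.27 (limma with block, adjusted p = 3.8e-04), from 1.62 and 1.06 to 5.46 and 3.86 FPKM. So PSMB10 and PSME2 did not pass where PSMB8 and PSMB9 rose, and a difference between them was not tested. The interferon motif letters were shared by PSMB10, PSME2 and PSME1, which rose. Matches were not read for PSMB8 and PSMB9.

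Ratios of paired genes show the same libraries free of scaling, and were chosen after their values were seen. PSMB8 was 4.0% and 2.05% of PSMB5 in esiGFP, 7.32% and 9.03% in esiFLI1 and 3.12% and 2.67% in esiUSP9X. PSMB9 was 0.581% and 0.439% of PSMB6 in esiGFP, 1.74% and 2.03% in esiFLI1 and 0.366% and 0.170% in esiUSP9X. For both pairs the esiFLI1 libraries stood clear above the other 4, and in all 6 the constitutive gene was by far the more abundant. PSMB10 was 9.80% and 2.98% of PSMB7 in esiGFP, 12.2% and 5.02% in esiFLI1 and 8.05% and 4.05% in esiUSP9X, so the groups overlapped. PSME1 was 32.2% and 25.6% of PSMA7 in esiGFP, 52.1% and 44.1% in esiFLI1 and 36.6% and 29.9% in esiUSP9X, again with the esiFLI1 pair on top, but PSMA7 itself fell. Against its partner PSME2, PSME1 was at 124% and 96.4% in esiGFP, 141% and 121% in esiFLI1 and 119% and 101% in esiUSP9X, where the esiFLI1 and esiGFP libraries overlapped.

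**Figure D4:**
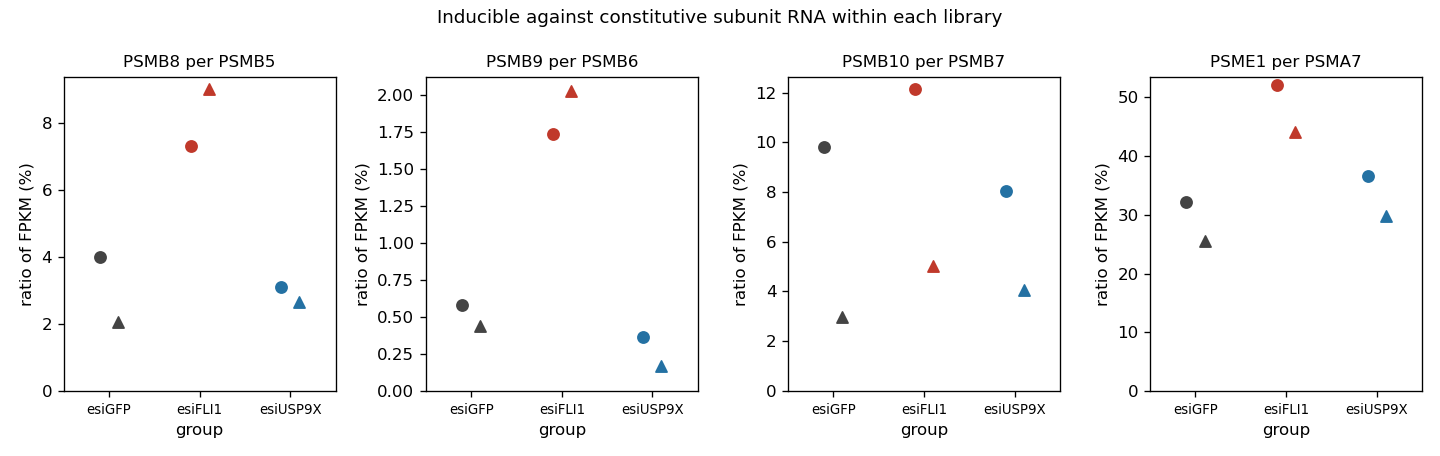
FPKM ratios in percent in the 6 libraries for PSMB8 to PSMB5, PSMB9 to PSMB6, PSMB10 to PSMB7 and PSME1 to PSMA7, with circles for replicate 1 and triangles for replicate 2. The esiFLI1 libraries are the highest in 3 panels, and in the PSMB10 panel the 2 replicates of each group lie further apart than the groups.

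Set beside the promoter sequences, all 8 genes with an ETS core fell, as did 14 of the 28 matched genes without it, where 21.6% of all genes were called lower. The medians were -0.44 and -0.33. The core was in 4 of 8 lid, 2 of 6 ATPase, 1 of 4 assembly and 1 of 4 activator promoters. It was in 0 of 6 alpha ring and 0 of 4 beta ring promoters. Motif and class thus overlap, and the part of each was not tested. Of the 5 genes with the interferon motif 0 fell and 1 rose (median 0.03), and of the 31 without it 22 fell and 0 rose (median -0.38). The antioxidant core divided the genes less: 7 of 11 with it fell and 1 rose (median -0.39), against 15 of 25 without it (median -0.37). These counts moved with the setting. Of the 8 genes with an ETS core 5 fell with the block and quantile normalization, against 8 of the 28 without it (20.8% of all genes). With the block and MIR6723 left out of the scaling, 4 of the 8 and 7 of the 28 fell (12.7% of all genes). Fewer of both fell when replicate 2 of esiGFP or of esiFLI1 was left out. With the block and median ratio scaling 2 of the 5 genes with the interferon motif, PSMA4 and PSMB4, fell and 0 rose. These are descriptions of few genes, and no test was made of them.

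Other genes of the pathway were taken from lists of known partners. Together with the immunoproteasome list above 37 were kept. Of these 12 fell and 5 rose, where 21.6% of all genes were called lower and 20.6% higher. Without the block 0 of the 37 passed. Of 5 further assembly factors 3 fell: PSMG3 by 0.58, PSMG1 by 0.55 and PSMG4 by 0.42 (limma with block, adjusted p = 0.0029, 0.0052 and 0.016), all chaperones of alpha ring assembly. Of 8 proteins that associate with the 19S particle 3 fell, UCHL5, the deubiquitinase docked by ADRM1 (-0.58), TXNL1, a thioredoxin-like protein bound to that particle (-0.31), and USP14, a deubiquitinase of the base (-0.30), with adjusted p of 0.015, 0.030 and 0.047 in the same fit. Of 7 shuttle and p97 genes 3 fell and 1 rose. VCP, the p97 unfoldase, fell by 0.44, and of the ubiquilins, which carry ubiquitinated proteins to the proteasome, UBQLN1 fell by 0.32 and UBQLN2 rose by 0.37 (limma with block, adjusted p = 0.016, 0.031 and 0.017). In most of the alternatives with the block the calls of TXNL1, USP14 and UBQLN1 were lost. Of 5 ubiquitin and E1 genes 1 fell, RPS27A (-0.46, limma with block, adjusted p = 0.0080), which encodes ubiquitin fused to a ribosomal protein. UBA1 (-0.26), the main E1 enzyme, and UBB (0.07), a polyubiquitin gene whose sign turned to -0.0079 under median ratio scaling, did not pass. Of 7 genes that control proteasome transcription 2 fell, MAFG (-0.74) and MAFF (-0.49), small partners of NFE2L1 (limma with block, adjusted p = 0.0023 and 0.018), and MAFK (-0.33) did not pass. MAFG was at 12.7 and 7.07 FPKM in esiGFP against 8.18 and 3.33 in esiFLI1, with overlap (limma without block, adjusted p = 0.605). MAFF lay near the filter, at 1.75 and 1.02 FPKM in esiGFP against 0.818 and 0.542 in esiFLI1. NFE2L1 itself differed by 0.14 (95% interval -0.11 to 0.38) and did not pass, and over the alternatives it ran from -0.32 to 0.60 and was called in 1 of the 10 blocked settings (limma, adjusted p = 0.042).

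The second comparison asks whether the genes differ after USP9X was targeted. None of the 41 was called in esiUSP9X against esiGFP by limma without the block (0.0247% of all genes were called) or with it (0.238% of all). USP9X, the target itself, was also not called without the block, but was with it (limma with block, adjusted p = 4.5e-04). At an unadjusted p under 0.05 the counts among the 41 were 0 without the block, where 0.937% of all genes passed, and 5 with it, where 10.9% did. In all 10 settings with the block the count stayed at 0. The median was -0.11 (all genes, -0.01), within replicates -0.03 and -0.16, and 26 of the 41 were negative in both replicate numbers, where 31.4% of all genes were. In 5 both esiUSP9X libraries lay below both esiGFP libraries (7.82% of all genes) and in 0 above (8.75%). With quantile normalization 30 of the 41 were negative and with MIR6723 left out of the scaling 32, against 38 on the deposited scale. The 4 genes with the smallest adjusted p, all at or below -0.27, were PSMB1, PSMC6, ADRM1 and PSMB4 (limma with block, adjusted p = 0.39, 0.40, 0.45 and 0.45).

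PSMB1 was at 510.0 and 553 FPKM in esiGFP, 412 and 412 in esiFLI1 and 456 and 416 in esiUSP9X, so the esiUSP9X pair lay below the esiGFP pair and just above the esiFLI1 pair. Its difference in esiUSP9X was -0.29 (95% interval -0.53 to -0.04, limma with block), and in esiFLI1 it fell by 0.37 (adjusted p = 0.025 in the same fit). For most of the genes that fell furthest in esiFLI1 the interval in esiUSP9X held 0. It ran from -0.33 to 0.10 for PSMD14, from -0.51 to 0.03 for PSMD12, from -0.25 to 0.27 for PSMD3 and from -0.37 to 0.07 for POMP. For ADRM1 it ran from -0.53 to -0.01. Both comparisons use the same esiGFP libraries, so their values are not independent.

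The third comparison, esiUSP9X against esiFLI1, measures the difference between the knockdowns directly, and shares its libraries with the other 2. Without the block limma called 0 of the 41 (3.08% of all genes), with 1 at an unadjusted p under 0.05, where 15.9% of all were. With the block it called 16, of which 15 were higher in esiUSP9X, where 20.2% of all genes were called higher, and 1 was lower, where 20.9% were, so that 16 of 41 stand beside 41.1% of all genes in both directions, and 20 had an unadjusted p under 0.05, where 50.7% of all genes did. The median was 0.23 (all genes, 0.02), and 34 of the 41 were higher in esiUSP9X in both replicate numbers, where 41.5% of all genes were. In 14 both esiUSP9X libraries lay above both esiFLI1 libraries (18.4% of all) and in 0 below (21.1%). The 15 held 6 lid genes and ADRM1. ADRM1 differed by 0.74 (SE 0.11), PSMD14 by 0.54 (SE 0.09), PSMD12 by 0.61 (SE 0.12) and PSMD3 by 0.56 (SE 0.11), with adjusted p of 0.0017, 0.0032, 0.0049 and 0.0059 from limma with the block. The 1 gene lower in esiUSP9X was PSME1 (-0.30, adjusted p = 0.031 in the same fit). No alpha ring gene was among the 16 calls: PSMA7, with 0.23, was the largest of the 7 differences and did not pass (limma with block, adjusted p = 0.089). With median ratio scaling and the block PSMA2, PSMA6 and PSMA7 were called. ADRM1 and PSMD14 were called in all 10 settings with the block, while the count went down to 3 without replicate 2 of esiFLI1 (21.7% of all genes called) or replicate 1 of esiUSP9X (23.9%) and to 4 without replicate 2 of esiUSP9X (24.4%), shares of the 41 below those of all genes.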

How the data were processed

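RNA of A673 cells was measured in 6 libraries, 2 for each of 3 groups taken from the labels. Stranded libraries depleted of ribosomal RNA were read from a single end, per the labels' protocols. The deposited values are FPKM made by the authors, 1 per gene symbol and library; TopHat, Cufflinks, Cuffdiff, hg19 and GRCh37 stand in the submitters' processing notes, with no version or role. No annotation or further scaling is given there. A stray line (1) was dropped, and 0 columns belonged to no sample. The depth is unknown: low values showed no steps of single reads.

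Genes with at least 1 FPKM in 2 of 6 libraries were kept (12169). Log2(FPKM + 1), which understates differences of low genes, entered lmFit and eBayes with a trend (limma 3.58.1, R 4.3.3), all 6 libraries in 1 fit, two-sided, with Benjamini-Hochberg adjustment over all kept genes and calls at an adjusted p under 0.05. The script was tested on simulated data. Deviations of same-numbered libraries from their group means correlated at 0.647, 0.589 and 0.644 between the 3 pairs of groups, so a fit with the replicate number as a block is given beside the fit without it. The pairing comes from the data, not the design. Genes named are, per class, those with the lowest and highest esiFLI1 difference and the highest level, the catalytic genes, PSMB10, PSME1 and PSME2, the 4 smallest blocked adjusted p per comparison, and 3 per pathway list by the esiFLI1 blocked adjusted p. PSMD11, NFE2L1, PSMA5 and PSMB2 levels, the PSME4 call and the gene ratios were added after values were seen. The members, lists and motifs were chosen with earlier results of these data known. Some listed partner and marker genes are not reported here, and counts leave them out. Alternatives were another pseudocount, filters, scalings and leaving out each library. GENCODE v29 gave names of copies and overlapping genes.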

Additional observations from a re-analysis of the deposited data

How the results depend on the processing

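Without a replicate block limma called 0 of the 41 genes in each comparison under all alternatives run. With the replicate block it called 27 in esiFLI1 against esiGFP and 16 in esiUSP9X against esiFLI1. With the block and median ratio scaling these counts were 36 and 24, with quantile normalization 16 and 10, and with MIR6723 left out of the scaling, an alternative chosen after seeing the data, 14 and 10. Leaving out replicates 1 and 2 of esiGFP, then of esiFLI1, then of esiUSP9X, the blocked counts were 28, 8, 20, 7, 22 and 21 in esiFLI1 against esiGFP and 18, 18, 14, 3, 3 and 4 in esiUSP9X against esiFLI1, each from a fit with fewer samples. The shares of all genes called were, for median ratio scaling, quantile normalization and the scaling without MIR6723, 45.7%, 38.7% and 41.1% in the first of these comparisons and 44.7%, 39.96% and 39.5% in the second, and with libraries left out, in the same order, 35.7%, 28.6%, 30.2%, 22%, 39.4% and 39.1% and then 44.4%, 44.2%, 30.2%, 21.7%, 23.9% and 24.4%. The median difference in esiFLI1 against esiGFP was -0.25 with quantile normalization and -0.22 without MIR6723, with or without the block. In esiUSP9X against esiFLI1 it was 0.29 with median ratio scaling, 0.15 with quantile normalization and 0.13 without MIR6723. Leaving out each library it was 0.22 to 0.30 without the block and, in the order above, 0.23, 0.23, 0.25, 0.20, 0.20 and 0.30 with it. The cause of the moves with scaling was not tested. Among the single genes, 886 values kept their direction and side of the threshold, 325 passed it under the alternative alone, 6 no longer passed (USP9X itself in esiUSP9X against esiFLI1, with a library left out) and 33 changed sign. PSMB10 turned to -0.012, PSME2 to -0.046 and UBB to -0.0079 with median ratio scaling, and PSMD10 to 0.043 without MIR6723, with or without the block. With the block, PSMB10 turned to -0.066 without esiGFP replicate 2 and -0.041 without esiFLI1 replicate 1, PSME2 to -0.028 without esiGFP replicate 1, and FLI1 in esiUSP9X to 0.096 without esiGFP replicate 2. Without it, leaving out each library, esiFLI1 differences from esiGFP ran from -0.49 to 0.0080 for PSMA5, -0.64 to 0.075 for PSMB4, -0.64 to 0.75 for PSMB10, -0.44 to 0.0072 for PSMD1, -0.25 to 0.035 for PSMD10, -0.62 to 0.026 for PSMB6, -0.051 to 0.11 for PSME2, -1.03 to 0.074 for PSMC6, -0.59 to 0.075 for UBA1, -0.0099 to 0.15 for UBB and -0.67 to 0.016 for MAFK. The esiUSP9X differences from esiGFP ran from -0.76 to 0.21 for ADRM1, -0.78 to 0.18 for PSMC6 and -0.36 to 0.22 for FLI1. The depth is unknown, so no limit of detection was set.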

Other observations

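The 41 genes mostly differed between replicates 1 and 2 in the same direction in every group. In all 3 groups 17 genes were higher in replicate 2 and 20 were lower, and 4 were mixed. The 17 had a median transcript GC content of 41.5% (range 34.6% to 48.7%, longest protein-coding transcript of GENCODE v29) and the 20 one of 53.4% (range 47.9% to 64.2%). PSMD12, PSMC6 and PSMA4 were among the genes higher in replicate 2, and ADRM1 and PSMB10 among those lower. The median esiFLI1 difference from esiGFP was -0.34 in the 17 and -0.38 in the 20.

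In GENCODE v29, 10 of the 41 genes have a named pseudogene, 15 share exon positions with a gene on the opposite strand, 6 with a gene on the same strand, and 18 have none of these. PSMA6 has 4 named pseudogenes, and PSMA2 and PSMD10 have 3 each. PSMA7, PSMD12 and POMP, which fell in all 10 settings with the block, are among the 18.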
